A study of Danio rerio with 20 samples.

Results

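Egr1 and zeb1b are 2 zinc finger transcription factors, and they were followed on 2 of the 16407 probes of a zebrafish array. They were taken by the spot ID in the array files, 45b10 for egr1 (NM_131248) and 45n10 for zeb1b (NM_131709). Each gene was read by 1 spot per array. RNA came from whole zebrafish embryos of 48 h kept in dimethylformamide (DMF) at 0.1 or 0.025 ml/L, in dimethyl sulfoxide (DMSO) at 0.1 or 0.025 ml/L, or in water without solvent as the control. Both solvents are used to carry poorly soluble chemicals into test water, and the arrays ask what the carrier alone does to expression. Each RNA sample was the pool of the surviving embryos of 1 plate, and a group had 4 pools. Every array compared 2 pools, 1 labelled with Cy3 and 1 with Cy5, and each of 10 pairs of pools was put on 2 arrays with the dyes exchanged.

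Egr1 is an immediate early gene: its transcript appears within minutes when growth factor or stress signalling reaches the MAP kinases and serum response factor, and the protein then switches on later genes. In zebrafish it is needed for development of the eye. Zeb1b, earlier called kheper in zebrafish, is a zinc finger E-box binding homeobox protein. Proteins of this family mostly repress transcription, and they are best known for switching off epithelial genes such as E-cadherin when cells take on a mesenchymal form; in the zebrafish embryo the gene is expressed in neural tissue. In a pool of whole embryos, a change in the number of cells that express a gene and a change in RNA per cell cannot be told apart.

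Neither gene passed the test in any comparison. Egr1 and zeb1b had 0 of 8 comparisons each at an adjusted p under 0.05 (limma, adjusted over the 3652 probes tested). Over all these probes 0% to 0.712% were called per comparison, so a count of 0 is near the background and says nothing particular about either gene. The widest difference of the 16 was that of egr1 between the 2 DMSO concentrations, 0.64-fold in DMSO 0.1 against DMSO 0.025 ml/L. The spread of egr1 left after the fit was larger than that of most probes, and that of zeb1b was at the median.

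The files behind these values differed in quality. Array 1 carried in its file the scan name of array 17, and egr1 and zeb1b had the same amplitudes on both arrays. The 2 files were not plain copies, since 29.2% of all spots had the same Cy3 amplitude in both. The raw log ratios of these 2 files correlated at 0.881, against at most 0.605 in the other 189 pairs of arrays. Which of the 2 arrays the scan belongs to was not tested. Array 17 was kept, in the pair of DMF 0.1 replicate 1 with control replicate 3. In the fit over pairs, the egr1 log2 difference of DMF 0.1 against control was 0.17 with that pair and 0.61 without it. The pair that holds array 1, DMSO 0.1 replicate 1 with DMF 0.025 replicate 2, was left out. That left 18 arrays in 9 pairs, with 4 pools of DMF 0.1, 3 of DMF 0.025, 3 of DMSO 0.1, 4 of DMSO 0.025 and 4 of the control. The arrays fell into scan batches, of which the second held 6 of the 9 pairs, with 35.5% to 51.0% of spots above the lowest confidence grade, and the last held 3 pairs, with 56.2% to 67.4%. Precision is limited by how few arrays there are. The labels number the pools of a group as replicates. The p-values measure the spread between pair ratios, which holds the error of the arrays as well as differences between pools. Limma drew the spread of each probe toward that of the other probes (8.67 prior beside 5 residual degrees of freedom). Of 33 marker genes listed for tissues of the embryo, 9 could be matched to a spot, and all 9 were brain, hindbrain, trunk or ear patterning genes with a ratio in at least 8 pairs. Markers of muscle, heart, blood, skin and gut were not measured under a symbol.

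Egr1 was a bright spot. Its amplitude, the spot intensity estimated by the scanner software, lay between 415.3 and 36310 over the 36 channels of the 18 arrays. That was 3.04 to 326 times the median empty spot of the same array and channel. It exceeded the 95th percentile of the empty spots in 35 of 36 channels, and the exception was control replicate 1 in Cy3. Zeb1b was dimmer, with amplitudes of 184.6 to 3151, or 1.5 to 153 times the median empty spot. It exceeded the 95th percentile of the empty spots in 25 of 36 channels, 14 of 24 in the second scan batch and 11 of 12 in the last.

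**Figure D1:**
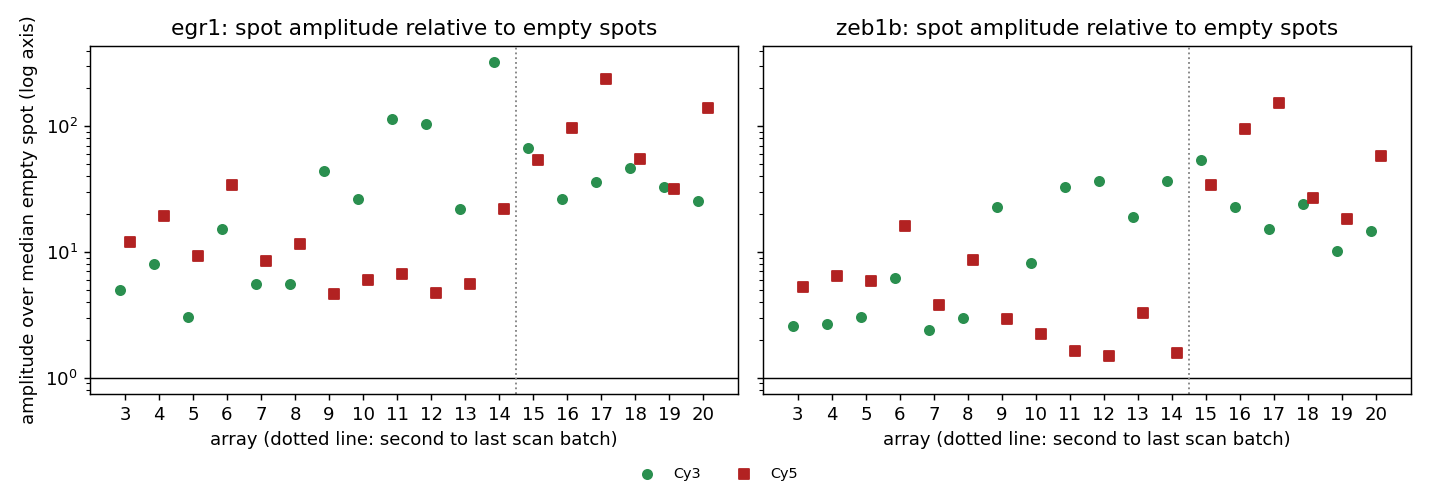
Spot amplitude of egr1 and zeb1b divided by the median empty spot of the same array and channel (log axis), for arrays 3 to 20 in Cy3 (circles) and Cy5 (squares). The horizontal line marks the empty spots themselves; egr1 stands at 3.04 times or more throughout, while zeb1b reaches down to 1.5 times in the second scan batch, left of the dotted line.

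The plot of amplitude over empty spots shows that the 2 scan batches were not alike. The median ratio to the empty spots was 10.4 for egr1 in the second batch and 50.05 in the last, and for zeb1b it was 4.52 and 25.5. For zeb1b, 10 of the 18 pools were above the 95th percentile of the empty spots on both of their arrays, 5 on 1 array and 3 on neither. Those 3 pools were DMSO 0.025 replicates 2 and 3 and control replicate 1. Their zeb1b signal was not well above background, so ratios against them are limited by the background.

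The most direct measure of each gene is the ratio between the 2 pools of a pair, read once in each dye orientation. For egr1, 3 pairs set an exposed pool against a solvent-free pool in the second scan batch. Egr1 was higher in DMSO 0.025 replicate 1 than in control replicate 1, with log2 ratios of 1.27 and 0.17 on the 2 arrays and a mean of 0.72 (1.65-fold). On the first of these arrays the control pool was the one egr1 channel not above the 95th percentile of the empty spots, so the 1.27 and the mean built on it are limited by the background. In DMSO 0.1 replicate 3 against control replicate 4 the log2 ratios of egr1 were 0.26 and 0.51, with a mean of 0.39. In DMF 0.025 replicate 1 against control replicate 2 the egr1 ratios had opposite signs, -0.63 and 0.20, and a mean of -0.22. The fourth control pair lay in the last batch, where DMF 0.1 replicate 1 against control replicate 3 gave egr1 ratios of -0.47 and -0.52, a mean of -0.49 (0.71-fold). The second of these arrays was array 17, whose scan name array 1 also carries. The means of the 4 pairs with a control were above 0 for both DMSO pools and below 0 for both DMF pools, and 1 of the 4 changed sign with the dyes. Each is 1 pair, and the fit over all pairs, given further on, has the opposite sign in 3 of these 4 groups.

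Among pairs of exposed pools, egr1 differed most between DMSO 0.1 replicate 2 and DMSO 0.025 replicate 2. The log2 ratios there were 0.31 on the first array and -2.27 on the second, with a mean of -0.98 (0.507-fold). The 2 orientations did not give the same sign. On the second array the egr1 spot had amplitudes of 7185 in the DMSO 0.1 pool and 36306 in the DMSO 0.025 pool, both the highest of their channel, at a spot confidence of 0.23, the lowest of egr1. On the first array the same pools gave 1872 and 2160. This is the one pair in which the 2 DMSO concentrations met on an array.

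The other exposed pairs moved egr1 less. DMF 0.1 replicate 3 against DMSO 0.1 replicate 4 gave egr1 log2 ratios of 0.75 and 0.61, a mean of 0.68 (1.6-fold), and this pair had the same sign on both arrays. DMF 0.1 replicate 2 against DMF 0.025 replicate 3 gave 0.12 and 0.46, a mean of 0.29, again with one sign. The remaining pairs had opposite signs on their 2 arrays: egr1 stood at 0.40 and -0.46 in DMF 0.1 replicate 4 against DMSO 0.025 replicate 4, with a mean of -0.031. It stood at 0.76 and -0.64 in DMF 0.025 replicate 4 against DMSO 0.025 replicate 3, with a mean of 0.061.

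For zeb1b the pair ratios had a smaller root mean square, 0.27 against 0.52 for egr1, although in 3 of the 9 pairs the mean of zeb1b was further from 0. DMSO 0.025 replicate 1 against control replicate 1 had the largest mean, with log2 ratios of 0.64 and 0.54 and a mean of 0.59 (1.50-fold). It is also 1 of the 2 pairs in which both arrays gave zeb1b the same sign, and its control pool was one of those not well above background. The other such pair was DMSO 0.1 replicate 3 against control replicate 4, at -0.25 and -0.077, with a mean of -0.17. On the second of its arrays the DMSO 0.1 pool was at 1.62 times the median empty spot and not above the 95th percentile, so this pair is limited by the background too. Against the other controls, zeb1b had log2 ratios of -0.69 and 0.22 in DMF 0.025 replicate 1 (control replicate 2), with a mean of -0.23. It had -0.15 and 0.20 in DMF 0.1 replicate 1 (control replicate 3), with a mean of 0.025. The 4 ratios to a control were therefore 2 above 0 and 2 below for zeb1b, and the DMSO pools stood on either side.

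Between exposed pools zeb1b ranged from a mean log2 ratio of -0.28 to one of 0.31. The lowest was DMF 0.1 replicate 4 against DMSO 0.025 replicate 4, with 0.13 and -0.68 on the 2 arrays. The highest was DMF 0.025 replicate 4 against DMSO 0.025 replicate 3, with 0.77 and -0.15. DMSO 0.1 replicate 2 against DMSO 0.025 replicate 2, the pair that stood out for egr1, had zeb1b ratios of 0.32 and -0.62 and a mean of -0.15. The 2 pairs of the last batch were close to 0 in the mean, at 0.15 in DMF 0.1 replicate 2 against DMF 0.025 replicate 3 and 0.092 in DMF 0.1 replicate 3 against DMSO 0.1 replicate 4. Each of the 5 pairs changed sign with the dyes.

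**Figure D2:**
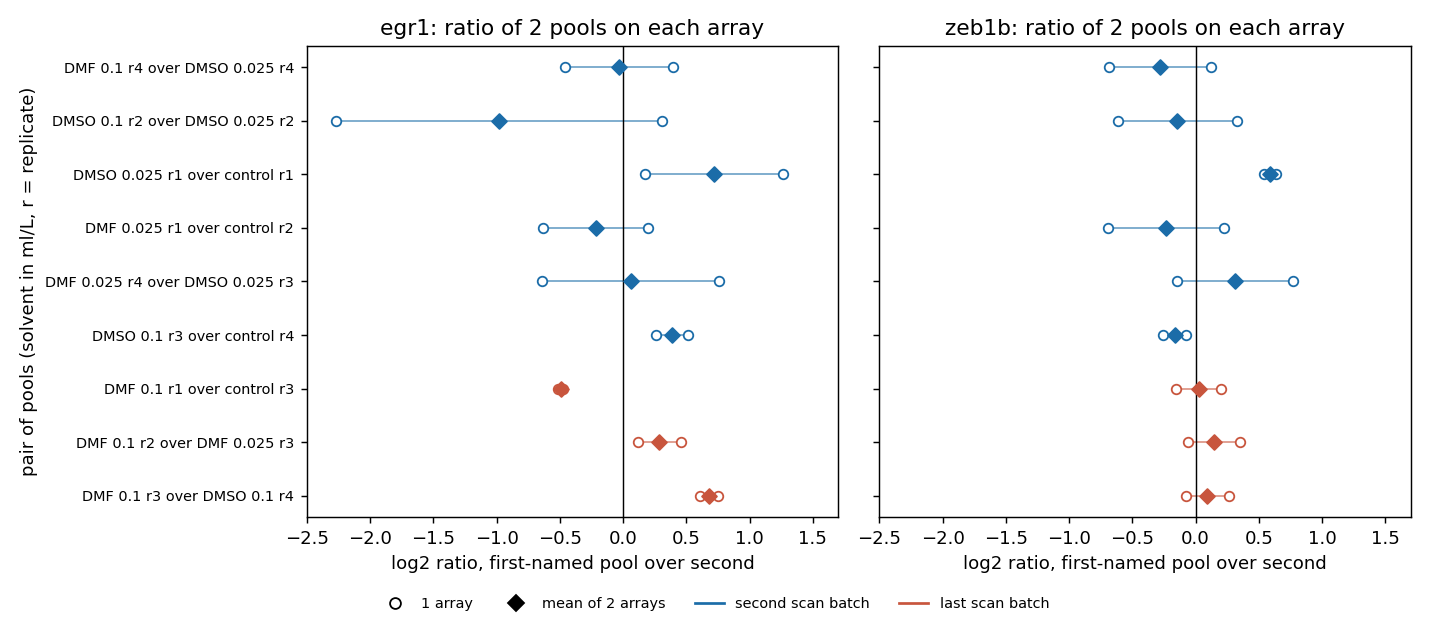
Log2 ratio of egr1 and zeb1b in each of the 9 dye-swapped pairs, first-named pool over second, on each of the 2 arrays (open circles) and in their mean (diamonds), coloured by scan batch. The 2 arrays gave egr1 the same sign in 5 of 9 pairs and zeb1b in 2 of 9; the longest line is egr1 in DMSO 0.1 replicate 2 over DMSO 0.025 replicate 2.

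The plot of ratios by pair shows how much of each value depended on the dye. Egr1 had the same sign on both arrays in 5 of 9 pairs, 2 of 6 in the second scan batch and 3 of 3 in the last. Zeb1b had the same sign in 2 of 9. Over the 2685 probes with a ratio in every pair the median was 5 of 9 pairs, 65.5% had at most 5, and 18.2% had at most 2. The share of same signs over these probes was 48.0% in the second batch and 54.1% in the last. Both genes leaned to Cy5: the part of the log2 Cy5 over Cy3 ratio that did not change with the orientation averaged 0.40 ± 0.42 for egr1 (SD, n = 9 pairs; above 0 in 7) and 0.28 ± 0.17 for zeb1b (above 0 in 9). A higher mean was found in 6.78% of the probes for egr1 and in 14.7% for zeb1b. The lean of egr1 lay mainly in the second scan batch, where this part was 0.12 to 1.29, against -0.071 to 0.17 in the last. For zeb1b it was 0.050 to 0.47 in the second batch and 0.17 to 0.21 in the last. This part cancels in the mean of a pair. Background that is higher for the same pool on both arrays of a pair does not cancel that way. In the second batch, the median empty spot of DMSO 0.025 replicate 2 was 267.4 as Cy3 and 1665 as Cy5. That of its partner, DMSO 0.1 replicate 2, was 96.42 and 22.04 on the same arrays. Control replicate 1, DMSO 0.025 replicates 3 and 4 and DMSO 0.1 replicate 3 also had the higher empty spots on both arrays. The pair of DMF 0.025 replicate 1 and the pairs of the last batch did not. Empty spots were higher in Cy3 on arrays 3 to 8, except on array 6, and higher in Cy5 on arrays 9 to 14. All the pools named with higher empty spots were Cy3 in the first of these sets and Cy5 in the second. A background of the pool and one of channel and array set therefore cannot be told apart.

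Levels of single pools were computed from the separate channels, as the mean log2 intensity of the pool in its Cy3 and its Cy5 array. Egr1 in the 4 DMF 0.1 pools was 11.28, 11.19, 11.77 and 10.57, and in the 3 DMF 0.025 pools it was 11.12, 10.90 and 10.50. In DMSO 0.1 it was 11.65, 11.40 and 11.10, and in DMSO 0.025 it was 10.89, 12.63, 10.44 and 10.60. The control pools had egr1 at 10.17, 11.33, 11.77 and 11.02. The ranges of the 5 groups overlapped throughout, and the highest and the lowest pool of all were DMSO 0.025 replicate 2 and control replicate 1.

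Levels of egr1 differed between pools of one group by as much as between groups. The Cy3 and Cy5 readings of the same pool lay a median of 1.265 apart on the log2 scale in the second scan batch. In the last batch that gap was 0.53. The spread between pools therefore includes error between readings of one pool. The group means were 11.20 ± 0.49 in DMF 0.1, 10.84 ± 0.31 in DMF 0.025, 11.38 ± 0.28 in DMSO 0.1, 11.14 ± 1.01 in DMSO 0.025 and 11.07 ± 0.68 in the control (SD, n = 4, 3, 3, 4 and 4 pools). The spread within a group was 0.65 on the log2 scale, pooled over groups, and the group means lay within 0.54 of each other. From the lowest to the highest pool, egr1 spanned 4.56-fold in DMSO 0.025 and 3.03-fold in the control, but 1.46-fold in DMSO 0.1. The wide span in DMSO 0.025 came from replicate 2, which read 10.61 as Cy3 and 14.65 as Cy5; without it the other 3 pools lay between 10.44 and 10.89. No neighbours in the order of the 5 means differed by more than the spread within a group.

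The groups overlapped in zeb1b as well; intensities of different spots cannot be ranked against those of egr1. Zeb1b levels were 10.78, 10.57, 10.38 and 9.48 in DMF 0.1, and 9.57, 10.42 and 9.72 in DMF 0.025. In DMSO 0.1 they were 9.38, 9.72 and 10.29, and in DMSO 0.025 they were 9.88, 9.52, 9.41 and 9.76. The control pools stood at 9.29, 9.80, 10.75 and 9.89. The means were 10.30 ± 0.57 in DMF 0.1, 9.90 ± 0.45 in DMF 0.025, 9.80 ± 0.46 in DMSO 0.1, 9.64 ± 0.21 in DMSO 0.025 and 9.93 ± 0.61 in the control. The spread within a group was 0.48, against 0.66 between the highest and the lowest mean, and no neighbours in the order of the means differed by more than that spread.

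For zeb1b the levels followed the scan batch. All 6 pools of the last batch, at 10.29 or above, exceeded all 12 pools of the second, at 9.89 or below, with means of 10.53 ± 0.20 and 9.62 ± 0.20 (SD). These are levels after normalization. The zeb1b amplitudes before it overlapped, at 619.4 to 1428 in the last batch and 184.6 to 3151 in the second. DMF 0.1 had 3 of its 4 pools in the last batch and DMSO 0.025 had none, and these are the groups with the highest and the lowest mean. Within the second batch zeb1b was 9.48 in the one DMF 0.1 pool, 9.65 ± 0.11 in 2 DMF 0.025 pools, 9.55 ± 0.24 in 2 DMSO 0.1 pools, 9.64 ± 0.21 in 4 DMSO 0.025 pools and 9.66 ± 0.32 in 3 control pools. Within the last it was 10.58 ± 0.20 in 3 DMF 0.1 pools, 10.42 in the DMF 0.025 pool, 10.29 in the DMSO 0.1 pool and 10.75 in the control pool. Inside a batch the zeb1b means of the groups lay within 0.18 and 0.46 of each other.

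Egr1 followed the batch less, at 11.34 ± 0.36 in the last (n = 6) and 11.03 ± 0.67 in the second (n = 12). Within the second batch egr1 was 10.57 in the DMF 0.1 pool, 10.81 ± 0.44 in DMF 0.025, 11.52 ± 0.18 in DMSO 0.1, 11.14 ± 1.01 in DMSO 0.025 and 10.84 ± 0.60 in the control. Within the last it was 11.41 ± 0.31 in DMF 0.1, 10.90 in DMF 0.025, 11.10 in DMSO 0.1 and 11.77 in the control. Batch and pool cannot be told apart for a single level, since each pool was scanned in 1 batch. A ratio taken within 1 array does not carry an offset between batches.

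**Figure D3:**
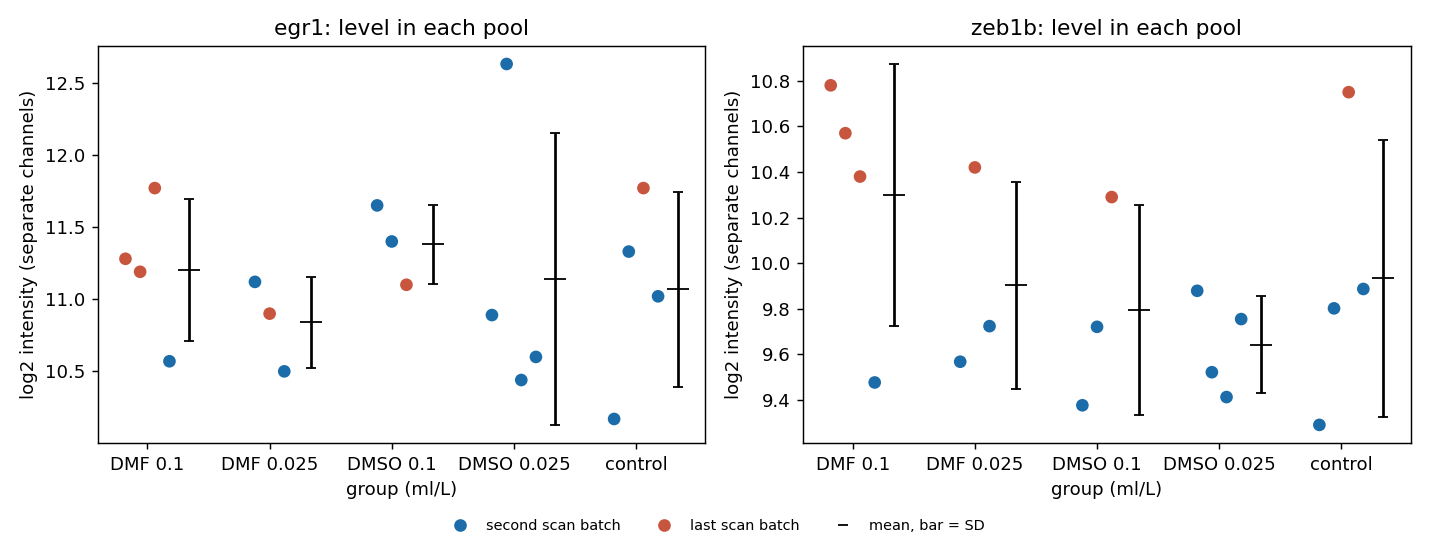
Log2 intensity of egr1 and zeb1b in each of the 18 pools, by group (solvent in ml/L) and coloured by scan batch, with the group mean and SD beside the points. Egr1 has 1 high pool in DMSO 0.025 at 12.63; for zeb1b the last-batch pools lie above the second-batch pools in every group that has both.

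The plot of levels by pool carries both points: the lone egr1 pool at 12.63 and the separation of zeb1b by batch. The groups were tested through the ratios within arrays, and the pool levels serve as a description. The loop model fits the 9 pair ratios with 4 coefficients, each exposed group minus the control, so a comparison uses the pair in which both groups met as well as the pairs that link them through a further group.

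Against the control, egr1 did not pass the test in any exposed group. In DMF 0.1 the log2 difference of egr1 was 0.17 ± 0.26 (SE; 95% interval -0.40 to 0.74; limma adjusted p = 0.999), and in DMF 0.025 it was 0.046 ± 0.29 (-0.57 to 0.66; limma adjusted p = 0.991). In DMSO 0.1 it was -0.23 ± 0.29 (-0.84 to 0.38; limma adjusted p = 0.775), and in DMSO 0.025 it was 0.41 ± 0.26 (-0.15 to 0.98; limma adjusted p = 0.996). The single pair with a control had the opposite sign to the fit in 3 groups: it stood at -0.49 in DMF 0.1, -0.22 in DMF 0.025 and 0.39 in DMSO 0.1. The interval reached up to 1.97-fold in DMSO 0.025 and down to 0.557-fold in DMSO 0.1. Among all probes 0.274% were called in DMSO 0.1 against the control, and 0% in each of the other 3 groups against the control. At an unadjusted p under 0.05 there were 452 probes in DMSO 0.1, 162 in DMSO 0.025, 37 in DMF 0.1 and 231 in DMF 0.025.

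Zeb1b was closer to the control than egr1 in 3 of the 4 groups, all but DMF 0.025, and did not pass in any. The log2 difference was 0.040 ± 0.21 in DMF 0.1 (95% interval -0.41 to 0.48; limma adjusted p = 0.999) and 0.051 ± 0.22 in DMF 0.025 (-0.43 to 0.53; limma adjusted p = 0.982). It was -0.060 ± 0.22 in DMSO 0.1 (-0.54 to 0.42; limma adjusted p = 0.933) and 0.18 ± 0.21 in DMSO 0.025 (-0.26 to 0.63; limma adjusted p = 0.996). The highest of these upper bounds was 1.54-fold, in DMSO 0.025. That value also rested on the pair whose control pool was not well above background: without that pair it was -0.087.

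The 2 concentrations of DMSO gave the widest of the 8 differences for both genes. Egr1 was 0.64-fold in DMSO 0.1 against DMSO 0.025, a log2 difference of -0.64 ± 0.29 with a 95% interval of -1.26 to -0.030. This was the one interval of the 16 that did not hold 0, and it did not pass the adjustment over all probes (limma adjusted p = 0.269). The interval used a spread that limma drew toward that of other probes. The residual spread of egr1 itself was larger than in 88.6% of probes, so its own spread would give a wider interval. Whether that would hold 0 was not tested. When the 1 direct pair, whose 2 arrays gave opposite signs, was left out, the egr1 difference was -0.35 (limma adjusted p = 0.73). The lowest limma adjusted p in any setting tried was 0.0848. It came with a difference of -0.95 when another pair, DMSO 0.1 replicate 3 with control replicate 4, was left out. For zeb1b the difference was -0.24 ± 0.22 (-0.72 to 0.24; limma adjusted p = 0.627). Its direct pair was against DMSO 0.025 replicate 2, where zeb1b was above the 95th percentile of the empty spots on neither array. The zeb1b difference is therefore limited by the background. In this comparison 0.438% of all probes were called, 15 higher and 1 lower in DMSO 0.1, and 630 probes had an unadjusted p under 0.05. The mean pool levels, which mix scan batches, ran the other way: egr1 was 0.24 higher in DMSO 0.1 than in DMSO 0.025, and zeb1b 0.15 higher. Within the second batch, the one that holds both groups, egr1 still was at 11.52 in DMSO 0.1 against 11.14 in DMSO 0.025, while zeb1b was at 9.55 against 9.64, the direction of the fit. Fitted on the separate channels, the differences were -0.45 for egr1 and -0.16 for zeb1b.

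The 2 concentrations of DMF were closer. Egr1 differed by 0.12 ± 0.29 in DMF 0.1 against DMF 0.025 (-0.49 to 0.74; limma adjusted p = 0.997), and zeb1b by -0.012 ± 0.22 (-0.49 to 0.47; limma adjusted p = 0.997). Of all probes 0% were called in this comparison. The concentration step of egr1 was compared between solvents as a contrast added to the 8 comparisons: the DMF step exceeded the DMSO step by 0.77 ± 0.37 (95% interval -0.038 to 1.57; limma adjusted p = 0.386). For zeb1b that difference of steps was 0.23 ± 0.29 (limma adjusted p = 0.786).

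Between solvents at one concentration, egr1 was 0.40 ± 0.29 higher in DMF 0.1 than in DMSO 0.1 (-0.22 to 1.01; limma adjusted p = 0.572), with 1 direct pair at 0.68. It was -0.37 ± 0.29 in DMF 0.025 against DMSO 0.025 (-0.98 to 0.25; limma adjusted p = 0.724), where the direct pair stood at 0.061. Neither passed the test. Zeb1b differed by 0.100 ± 0.22 at 0.1 ml/L (-0.38 to 0.58; limma adjusted p = 0.888) and by -0.13 ± 0.22 at 0.025 ml/L (-0.61 to 0.35; limma adjusted p = 0.894). Over all probes 0.712% were called between DMF 0.1 and DMSO 0.1, all of them lower in DMF 0.1, and 0% between DMF 0.025 and DMSO 0.025.

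**Figure D4:**
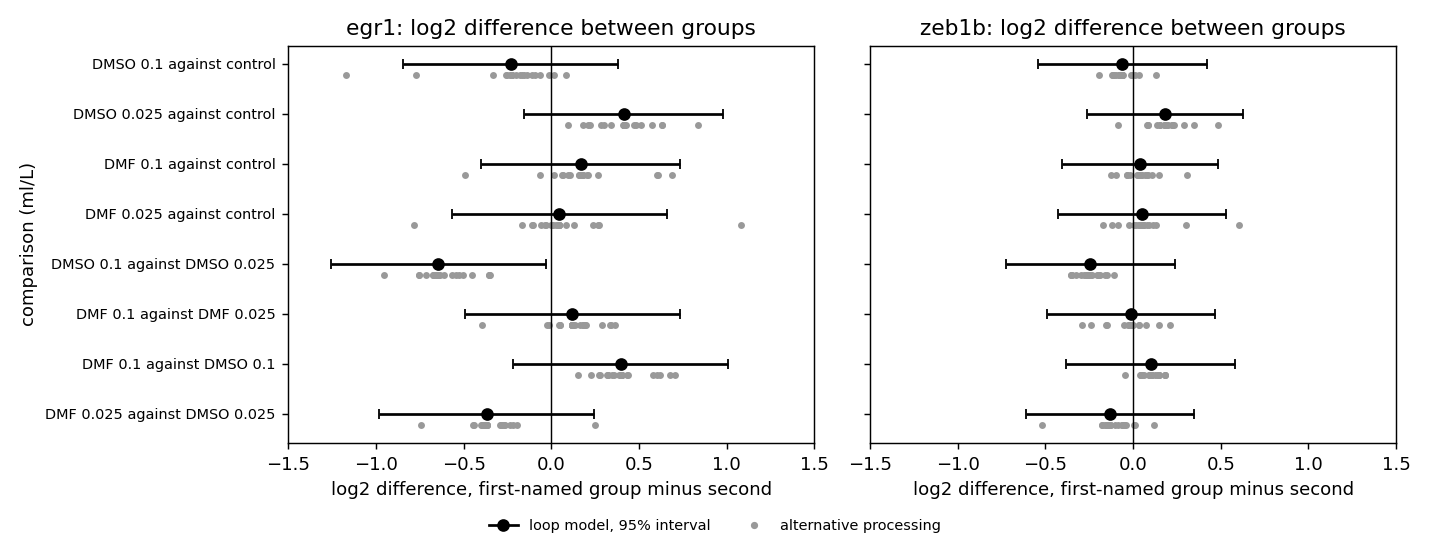
Log2 difference of egr1 and zeb1b in the 8 comparisons, first-named group minus second, with its 95% interval (black), and the same difference under each alternative processing (grey). Only the egr1 interval for DMSO 0.1 against DMSO 0.025, -1.26 to -0.030, lies wholly on one side of 0.

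The plot of the 8 comparisons shows that the intervals of egr1 reach 0.57 to 0.61 to either side and those of zeb1b 0.45 to 0.48. Tested over all 5 groups at once, egr1 had an F of 1.49 (limma adjusted p = 0.695) and zeb1b an F of 0.346 (limma adjusted p = 0.955), and 0.110% of all probes were called by that test. In the order of the model egr1 was highest in DMSO 0.025, followed by DMF 0.1, DMF 0.025, the control and DMSO 0.1. Zeb1b ran from DMSO 0.025 through DMF 0.025, DMF 0.1 and the control to DMSO 0.1. No neighbours in either order differed beyond the error of the fit.

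After the model, egr1 kept a residual spread of 0.53 on the log2 scale, larger than in 88.6% of the 3652 probes tested, whose median was 0.32. Zeb1b had a residual spread of 0.32, larger than in 50.1%. Before the model, the root mean square of the 9 pair ratios was 0.52 for egr1 (above 85.4% of probes) and 0.27 for zeb1b (above 26.0%). The pair ratios of egr1 were thus wider than those of most probes, and those of zeb1b narrower than most. Differences between pools and error between arrays both enter these ratios and were not separated.

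The ratios of egr1 and zeb1b had the same sign in 7 of the 9 pairs. Their Pearson correlation over pairs was 0.52 and Spearman's rho 0.52, both spots being read from the same arrays and pools. Zeb1b was thereby the gene with a symbol most like egr1 of the 13 that could be compared, although it ranked only at 573 among all 3651 other probes. Next came naca, the alpha chain of the nascent polypeptide complex, at 0.51, and the least like was dlx5a, a homeobox gene of the jaw and forebrain, at -0.58 over 8 pairs. For zeb1b the most alike were dlx2a, a homeobox gene of the forebrain, at 0.85, and mafba, a hindbrain segmentation gene, at 0.62. The least like zeb1b was hoxb5a, at -0.21 over 8 pairs. Of all probes, 1.34% correlated above 0.8 with egr1 and 1.40% with zeb1b, the median being 0.056 and 0.17. Over the 18 pool levels egr1 and zeb1b had a correlation of 0.27.

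Few other genes of the same pathways could be read. Of 34 genes listed as immediate early genes and their regulators, 2 carried a symbol on the array, egr1 and egr2b. Egr2b, a close relative that marks hindbrain segments, was above the lowest confidence grade on 12 of 18 arrays and had a ratio in 4 pairs, between -0.66 and 0.079, too few to be tested. Of 28 genes listed for the zeb family and the epithelial to mesenchymal transition, 1 was found, zeb1b itself. The members of both lists that could be tested were egr1 and zeb1b themselves, so the lists add no further gene. Of these, 0 of 2 passed in any of the 8 comparisons, beside 0% to 0.712% of all probes. A count of 0 in 2 is near that background.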

How the data were processed

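The members and gene lists were chosen with earlier results of these data known. For each spot and channel the deposited array files hold an intensity, the amplitude that BlueFuse for Microarrays (3.3 on 2 arrays and 3.6 on 18, per the file headers) took from the image; they hold no background value. The deposited confidence score of a spot comes with a grade from A to E. The deposited value table holds the authors' log ratio per spot and array, read here as log2 although its base is not stated. Every column correlated best with the scanner ratio, Cy5 over Cy3, of the same array (Spearman 0.379 to 0.839), with medians from -0.0444 to 0.0654; its base, scale and normalization are not given in the sources used here. Cy5 is channel 2 per the labels.

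Log2 ratios were taken without background correction with limma 3.58.1 in R 4.3.3 (also data.table in version 1.17.8, jsonlite 2.0.0 and statmod 1.5.0), and normalized within arrays by loess (span 0.3, 4 iterations). The 750 control spots had weight 0, and spots of the lowest grade were set missing. Signs were turned to a common direction, and each pair of arrays was averaged to 1 replicate. The loop model (lmFit, eBayes; 5 residual and 8.67 prior degrees of freedom) was fitted on the 3652 probes with a ratio in at least 8 pairs, with Benjamini-Hochberg adjustment over all of them. Pool levels used Aquantile normalization of the separate channels. The loop model was tested on simulated data. RefSeq accessions of 61 spots were matched without version to gene symbols, and 48 matched. Genes like a member were named by rule: per member the 2 highest and the lowest correlation over at least 8 pairs among genes with a symbol. Alternatives covered the confidence filter, normalization, background, arrays, pair averaging, channels, missing values, scan batch, replicate block, single pairs and the authors' table.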

Additional observations from a re-analysis of the deposited data

How the results depend on the processing

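Under 23 alternative settings there were 406 values of egr1 and zeb1b, of which 0 passed the threshold and 38 changed sign. The values of the last scan batch alone had no p and could not pass. The F values over the 5 groups, from 22 settings per gene, have no sign to change. The direction held in every setting that gave a value (22 for comparisons with DMSO 0.025, which had no pool in the last scan batch, and 23 for the others) for egr1 in DMSO 0.025 against control (0.093 to 0.83), DMSO 0.1 against DMSO 0.025 (-0.95 to -0.35) and DMF 0.1 against DMSO 0.1 (0.15 to 0.71), and for zeb1b in DMSO 0.1 against DMSO 0.025 (-0.35 to -0.11). Not all of these settings could move a difference. Those on missing values and on single arrays returned the main values for both genes. Some fits without 1 pair also left a comparison at its main value. Other comparisons turned as follows, and the cause was not tested. Print-tip loess gave zeb1b -0.035 in DMF 0.1 against control. All 20 arrays gave egr1 -0.030 in DMF 0.025 against control and zeb1b 0.035 in DMF 0.1 against DMF 0.025; separate channels gave -0.034 and 0.071 there. The authors' deposited table gave egr1 -0.10 in DMF 0.025 against control, and zeb1b -0.033 in DMF 0.1 and -0.022 in DMF 0.025 against control. The second scan batch alone gave egr1 0.019 in DMSO 0.1 against control, and zeb1b -0.13 in DMF 0.1 against control and -0.046 in DMF 0.1 against DMSO 0.1. The last batch alone, chosen after seeing the data and with no test, gave egr1 -0.49 in DMF 0.1 and -0.78 in DMF 0.025 against control, and zeb1b -0.12 in DMF 0.025 against control and 0.15 in DMF 0.1 against DMF 0.025; egr1 in DMSO 0.1 against control kept its sign there but moved to -1.17. With the replicate block, egr1 was 0.083 in DMSO 0.1 against control, -0.40 in DMF 0.1 against DMF 0.025 and 0.25 in DMF 0.025 against DMSO 0.025, and zeb1b was 0.13 in DMSO 0.1 against control and 0.12 in DMF 0.025 against DMSO 0.025. In DMF 0.025 against control the block kept the signs but moved egr1 from 0.046 to 1.08 and zeb1b from 0.051 to 0.60. Pools with the same replicate number were no more alike than others. Over 29 pairs of pools with the same number the deviations correlated at -0.51 to 0.40, with a mean of -0.051. Over 91 pairs with different numbers it was -0.62 to 0.44, with a mean of -0.031. These deviations come from pool levels, which mix scan batches. Leaving out 1 pair at a time gave egr1 -0.064 to 0.61 in DMF 0.1, -0.17 to 0.28 in DMF 0.025, -0.77 to -0.010 in DMSO 0.1 and 0.18 to 0.63 in DMSO 0.025 against control, -0.024 to 0.34 in DMF 0.1 against DMF 0.025 and -0.74 to -0.24 in DMF 0.025 against DMSO 0.025. It gave zeb1b -0.095 to 0.15, -0.17 to 0.30, -0.20 to 0.032 and -0.087 to 0.35 in the same 4 groups against control, -0.15 to 0.21 in DMF 0.1 against DMF 0.025 and -0.52 to 0.011 in DMF 0.025 against DMSO 0.025. Over all probes the 8 comparisons had 52 calls. They had 1 with the lowest grade kept, 17 with print-tip loess, 4 with median centring, 26 with all 20 arrays, 203 with single arrays, 994 with separate channels, where the 2 arrays of a pair count separately, 0 with the authors' deposited table, 15 in the second batch alone, 0 with the replicate block and, without 1 pair, 5 (DMF 0.1 replicate 3 with DMSO 0.1 replicate 4 left out) to 130 (DMSO 0.1 replicate 3 with control replicate 4 left out). The 2 normexp settings gave zeb1b 0.20 and 0.24 in DMSO 0.025 against control (0.18 without), -0.10 and -0.11 in DMSO 0.1 against control (-0.060 without) and -0.30 and -0.35 in DMSO 0.1 against DMSO 0.025 (-0.24 without). Low zeb1b signal over the empty spots limits what its ratios can show.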

Other observations

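Array 2, whose partner is the array that names the scan of another, compared DMSO 0.1 replicate 1 with DMF 0.025 replicate 2 in 1 dye orientation and stayed outside the model. Egr1 had a log2 ratio of -0.31 there, DMSO 0.1 over DMF 0.025, and zeb1b one of 0.45. After the mean dye part of the 9 pairs was taken off, the ratios were -0.70 for egr1 and 0.17 for zeb1b. The model, which did not use this array, put the same difference at -0.28 ± 0.34 for egr1 and -0.11 ± 0.27 for zeb1b (SE). Array 2 was the only array of the first scan batch, with 30% of spots above the lowest confidence grade. The dye part of egr1 differed between the other batches, and whether its mean applies to array 2 was not tested.

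In the authors' deposited table, the mean log ratio of a pair had the same sign as the ratio from the scanner files in 8 of 9 pairs for egr1 and in 8 of 9 for zeb1b. The egr1 pair of DMSO 0.1 replicate 2 over DMSO 0.025 replicate 2 stood at -0.36 in the authors' deposited table, whose log base and scale are not stated, and at a log2 ratio of -0.98 from the scanner files; the sizes cannot be set against each other.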
